A study of Mus musculus with 4 samples.

Results

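S100, galectin and annexin genes form the set described here: *S100a4*, *S100a6*, *S100a10*, *S100a11* and *S100a13*, the galectins *Lgals1* and *Lgals3*, the annexins *Anxa1* and *Anxa2*, and *Vim*, which encodes the intermediate filament protein vimentin. The members were taken by name from the deposited marker tables of the series, where 9 of the 10 genes had at least 1 entry, among 3488 genes with an entry in all. *Vim* had no entry in either table, so no share is given for it. The cells came from wild-type BALB/c mice of 8 weeks, which received an intraperitoneal injection on each of 5 days. In the rIL-33 liver and rIL-33 lung groups the injection was 0.5 µg of recombinant IL-33, a cytokine that activates group 2 innate lymphoid cells (ILC2s). The PBS liver and PBS lung groups received PBS. Each of the 4 groups was 1 single-cell RNA sequencing library, made from the pooled tissue of 2 to 6 mice and sorted as lineage-negative CD127+Thy1+ST2+ cells. The analysed values cover the 4 libraries together, with none for a single library, so treatment and organ were not compared. There was no replicate behind any value, the number of cells behind a share was not in the tables, and depth was unknown.

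S100 proteins are small calcium-binding proteins, and annexins bind membrane lipids when calcium is present. The product of *S100a10* pairs with that of *Anxa2* at the inner face of the plasma membrane, and the product of *S100a11* can bind that of *Anxa1*. Galectins bind galactose-bearing sugars on glycoproteins, inside and outside the cell. In T cells and innate lymphoid cells, transcripts of many of these genes are more abundant after activation or tissue entry than in naive cells.

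An entry in a table is 1 gene that the authors' marker search listed for 1 cluster, set against all other cells of the table. The direction of a call lies in its fold change, which was not used here. Each entry carries a pair of shares, the percent of the cluster's cells in which the gene was above 0 and the same percent among the remaining cells. The larger of the pair was never under 25% in either table. A gene is called found in a cell where it was above 0, which in droplet data free RNA can also give, and the part of free RNA was not tested. A gene without an entry in a cluster may be lower there, alike, higher by too little to be listed, or untested. The ILC2 subcluster table compared 10 subclusters of the ILC2s, numbered from 0, and the cell type table compared 21 named cell types of all sorted cells. The entries are the authors' marker calls, whose fold changes and p-values were not used. Each share given below describes the pooled cells, and no p-value was computed.

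Members had 27 entries in the ILC2 subcluster table, for 9 genes, and 48 entries in the cell type table, for 8 genes. *S100a13* was the member with entries in the first of these alone. Members with an entry averaged 3 of 10 subclusters, whereas an entry was present for 14.2% of the pairs of gene and subcluster over all genes. In the cell type table they averaged 6 of 21 types, against 12.5% of pairs over all genes. Every member entry had a larger share inside the cluster than outside, 27 of 27 and 48 of 48, where 70.5% and 83.6% of all entries did. Of the 1102 ILC2 subcluster entries with a smaller share inside, 978 lay in subcluster 5, which had no member entry. Of the 719 among cell types, CD8_Naive, gdT_Naive, ILC2_2 and CD4, also without members, had 113, 111, 106 and 100. The percentages over all entries thus include clusters without a member entry. The share was at least 10 percentage points higher in 17 of the 27 and in 31 of the 48 member entries, against 56.3% and 65.5% of all entries. The median difference was 11.5 points for members and 13.3 points for all entries of the ILC2 subcluster table, and 13.7 and 18.4 points in the cell type table. The 56.3% and the 13.3 points include the 1000 entries of subcluster 5, whose median was -21.3 points. Both values are lowered by these entries, so they do not show that members stood above other genes. Most members were found in the large majority of cells, which leaves little room for a difference in share.

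The 5 S100 members lie on chromosome 3 in GENCODE M21 (GRCm38), all on the plus strand and all protein-coding. *S100a13* (90514435 to 90524581), *S100a4* (90603771 to 90606045) and *S100a6* (90612882 to 90624181) form one group, with 6.84 kb between the annotated ends of *S100a4* and *S100a6*. *S100a11* (93520488 to 93526287) and *S100a10* (93555080 to 93564643) lie 2896 kb further on. *Lgals1* is on chromosome 15 (78926725 to 78930465), *Lgals3* on chromosome 14 (47367751 to 47386160), *Anxa2* on chromosome 9 (69453620 to 69491795) and *Anxa1* on the minus strand of chromosome 19 (20373428 to 20390944).

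The study followed AP-1 family transcription factors and GATA3 in these cells, and members shared subclusters, so the 250 bases before the RefSeq start were searched for letters of both factors. RefSeq (GRCm38.p6) gave this window for 8 of the 10 members, *Vim* included. The letters were TGANTCA for AP-1, AGATAA or TGATAA for GATA and TATAAA for the TATA box, on both strands. AP-1 letters stood in the windows of *S100a11* and *Anxa2*, 2 of 8, and in 6.75% of all 32851 windows. GATA letters stood in that of *S100a11* alone, and in 16.6% of all windows. TATA letters stood in *Anxa1*, *Anxa2*, *S100a4* and *Vim*, and in 12.4% of all windows. A match is a description of the letters and not a binding site, and no matches overlapped. The windows of *S100a11* and *Anxa2* are shown for their AP-1 letters, that of *Anxa1* for the member whose subclusters differed from all the others, and that of *S100a6*, which held none of these letters. Capitals mark the matches, and each window is written 5′ to 3′ on the strand of its gene.
S100a11 (chr3:93520246-93520495, plus strand): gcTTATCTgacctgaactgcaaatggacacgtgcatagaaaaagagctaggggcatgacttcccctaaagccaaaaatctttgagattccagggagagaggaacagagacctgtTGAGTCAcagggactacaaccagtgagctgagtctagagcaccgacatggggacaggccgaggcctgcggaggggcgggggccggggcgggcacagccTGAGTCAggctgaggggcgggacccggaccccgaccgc
Anxa2 (chr9:69453433-69453682, plus strand): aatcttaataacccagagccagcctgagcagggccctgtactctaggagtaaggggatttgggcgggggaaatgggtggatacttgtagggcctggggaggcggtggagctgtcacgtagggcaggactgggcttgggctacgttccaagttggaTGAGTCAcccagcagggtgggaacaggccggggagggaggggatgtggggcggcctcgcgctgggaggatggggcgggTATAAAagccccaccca
Anxa1 (chr19:20390672-20390921, minus strand): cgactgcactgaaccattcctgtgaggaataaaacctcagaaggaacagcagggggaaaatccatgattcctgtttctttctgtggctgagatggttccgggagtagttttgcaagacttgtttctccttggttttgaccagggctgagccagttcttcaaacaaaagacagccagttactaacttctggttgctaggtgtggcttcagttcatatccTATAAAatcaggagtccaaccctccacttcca
S100a6 (chr3:90612644-90612893, plus strand): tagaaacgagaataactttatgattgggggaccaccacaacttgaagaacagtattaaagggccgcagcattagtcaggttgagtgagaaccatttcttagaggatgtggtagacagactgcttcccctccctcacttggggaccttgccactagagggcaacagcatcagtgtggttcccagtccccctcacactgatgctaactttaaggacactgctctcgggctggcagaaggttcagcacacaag

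In *S100a11* the AP-1 letters began 136 and 38 bases before the start, and in *Anxa2* they began 95 bases before it.

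Among ILC2s, subcluster 1 had entries for 8 of the 9 members and lacked *Anxa1*, while 13.8% of all 2629 genes of the table had an entry there. Subcluster 6 had 6 members (7.23% of all genes) and subcluster 8 had 5 (9.62%). Subcluster 7 followed with 3 members, *Anxa2*, *Lgals1* and *Lgals3* (10.3%), and subcluster 4 with 2, *Anxa2* and *Lgals1* (30.5%). *S100a11* was the single member of subcluster 2 (4.98%). *Anxa1* was the single member of subclusters 0 (11.4%) and 9 (7.57%), where no other member had an entry. Subcluster 3, with entries for 9.01% of all genes, and subcluster 5, with entries for 38%, had no member. In subcluster 5 the share inside was lower than outside in 97.8% of all entries, and no member had an entry there to compare. Of 8 T cell marker genes, subcluster 5 had entries for 4, with larger shares inside for *Cd3e* (32.0% against 4.7%), *Trdc* (25.6% against 7.0%) and *Cd3g* (39.5% against 32.6%) and a smaller one for *Trbc1* (45% against 81%). Subcluster 6 had 2 of these genes and subclusters 1, 2 and 7 had 1 each, with differences of 5.4 to 13.7 points. The part of other cells in the member entries was not tested.

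**Figure D1:**
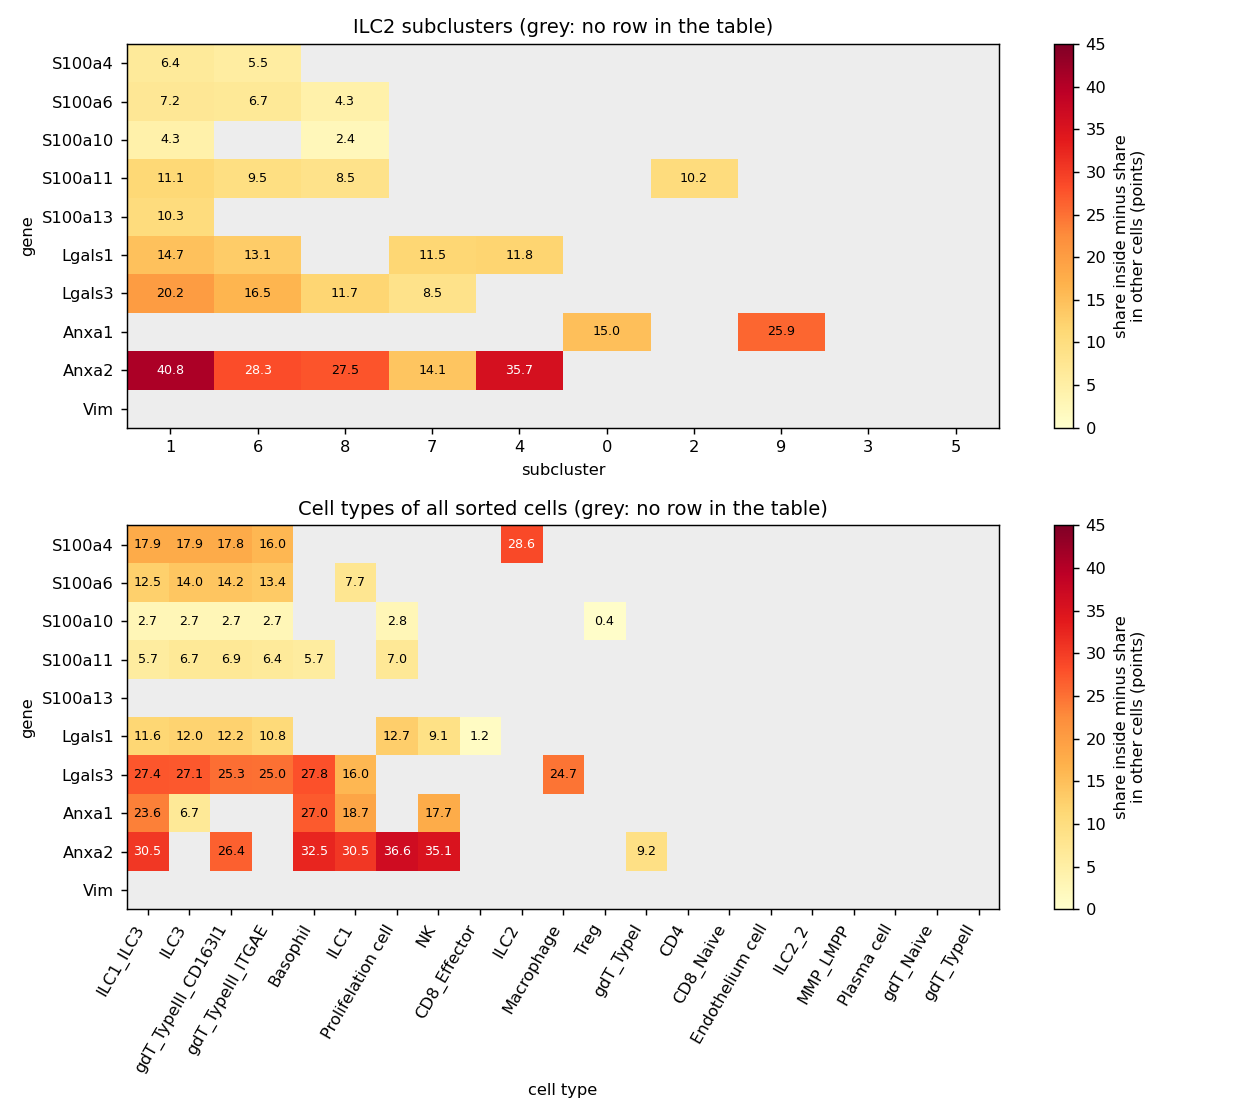
Difference in the share of cells with each gene, inside the cluster minus all other cells, in percentage points, for the 10 subclusters of ILC2s (top) and the 21 cell types (bottom), ordered by the number of members with an entry. Grey marks no entry; subcluster 1 holds 8 coloured squares, *Anxa1* stands apart in subclusters 0 and 9, and ILC1_ILC3 holds 8 in the lower panel.

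*S100a4*, whose product binds myosin and is linked to cell motility, had entries in subclusters 1 and 6. Its share was 99.4% in subcluster 1 and 93.0% outside it, and 99.6% in subcluster 6 and 94.1% outside it. *S100a6*, which is its neighbour on the chromosome, had entries in the same subclusters and in subcluster 8. Its share was 99.3% against 92.1% in subcluster 1, 100% against 93.3% in subcluster 6 and 97.8% against 93.5% in subcluster 8. Put as the cells in which it was listed at 0, *S100a6* was missing from 0.7% of subcluster 1 and from 7.9% of the ILC2s outside it.

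*S100a10*, the partner of *Anxa2*, had entries in subclusters 1 and 8. The shares were 99.9% against 95.6% in subcluster 1 and 98.9% against 96.5% in subcluster 8, so it was above 0 in nearly all ILC2s. *Anxa2* also had entries in subclusters 4, 6 and 7, where *S100a10* had none. *S100a11* had the most entries of the S100 members, in subclusters 1, 2, 6 and 8. It was found in 99.4% of subcluster 1, 98.8% of subcluster 2, 99.6% of subcluster 6 and 98.9% of subcluster 8. Outside these subclusters the shares were 88.3%, 88.6%, 90.1% and 90.4% in the same order. *S100a13*, linked to the release of proteins that lack a signal peptide, had an entry in subcluster 1 alone, at 94.4% against 84.1%.

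*Lgals1*, which encodes galectin-1, was found in 98.9% of subcluster 1 against 84.2% of the other ILC2s. Subcluster 6 had it in 99.8% against 86.7%, subcluster 7 in 98.5% against 87.0% and subcluster 4 in 97.9% against 86.1%. *Lgals3*, which encodes galectin-3, was found in 97.8% of subcluster 1 against 77.6%, and in 97.5% of subcluster 6 against 81.0%. Its shares in subclusters 8 and 7 were lower, at 93.3% against 81.6% and 90.0% against 81.5%. Both galectins thus shared subclusters 1, 6 and 7, and *Lgals1* alone had subcluster 4 while *Lgals3* alone had subcluster 8.

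*Anxa2* had the largest single difference of any member in this table, in subcluster 1. It was found in 81.7% of subcluster 1 against 40.9% of all other ILC2s, a difference of 40.8 points. Subcluster 4 had it in 81.5% against 45.8%, subcluster 6 in 76.4% against 48.1% and subcluster 8 in 76.4% against 48.9%. Subcluster 7 came last of the 5 with 63.0% against 48.9%. Subcluster 4 also had entries for 4 of 5 cell cycle markers, and what part dividing cells had in the *Anxa2* share there was not tested. Subclusters 1, 6, 7 and 8 had 0, 1, 0 and 1 of these markers.

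*Anxa1*, which encodes a glucocorticoid-induced protein that limits inflammation, had entries in subclusters 0 and 9. Its share was 51.9% in subcluster 0, with 36.9% outside, and 66.7% in subcluster 9, with 40.8% outside. Its subclusters and those of *Anxa2* did not overlap, and *Anxa1* had no entry in subcluster 1. Genes with an entry had 1.42 entries on average over the 10 subclusters, and how often 2 genes share none was not counted. The lack of overlap is therefore only a description. Subcluster 9 held 0.611% of the ILC2s by the solved sizes below, so its share rests on few cells.

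**Figure D2:**
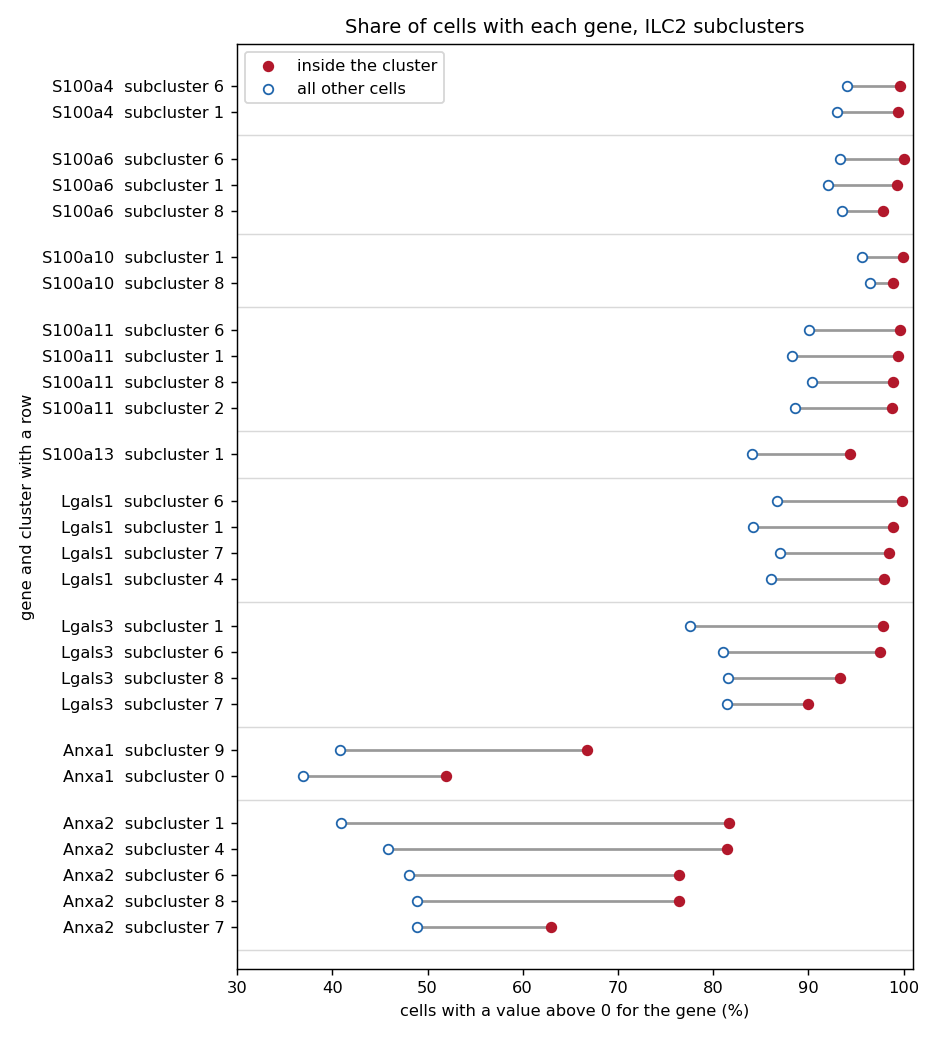
Percent of cells in which each member was above 0 (x axis, %) inside a subcluster (filled) and in all other ILC2s (open), 1 line for each of the 27 entries. The x axis starts at 30%; the lines of *Anxa2* and *Anxa1* lie to the left of the others, and the longest is *Anxa2* in subcluster 1, from 40.9% to 81.7%.

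The size of each subcluster was solved from the shares, since the shares inside and outside any cluster must add up to the same share in all cells. Subcluster 0 held 27.3% of the ILC2s, subcluster 1 20.1%, subcluster 2 18.3%, subcluster 3 14.9% and subcluster 4 9.23%. Subclusters 5, 6, 7 and 8 held 3.87%, 3.72%, 1.42% and 0.668%. With these sizes the share of all ILC2s with each member, and that in the pooled subclusters without an entry, could be solved, with an error of at most 0.0398 points that covers rounding and the size fit but not variation between animals.

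*Anxa2* was found in 49.1% of all ILC2s, in 80.2% of the 5 subclusters with an entry and in 32.3% of the other 5, pooled. The subclusters with an entry made up 35.1% of the ILC2s and 57.3% of the ILC2s with *Anxa2*, of which subcluster 1 alone held 33.4% and subcluster 4 15.3%. *Anxa1* was found in 41.0% of all ILC2s, in 52.2% of subclusters 0 and 9 and in 36.6% of the others. Subcluster 0 held 34.6% of the ILC2s with *Anxa1* and subcluster 9 held 0.995%. So *Anxa1* was not confined to the subclusters with an entry, and most ILC2s that had it lay outside them.

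For *Lgals3* the share was 81.6% of all ILC2s, 97.2% of the 4 subclusters with an entry and 76.2% of the rest. *Lgals1* was at 87.2%, 98.7% and 81.1% in the same order. Among the S100 members, *S100a11* had 99.2% with an entry and 84.0% without. *S100a13* had 94.4% and 84.1%, *S100a6* 99.4% and 91.7%, *S100a4* 99.4% and 92.7%, and *S100a10* 99.9% and 95.6%. Each of these genes was thus found in more than 4 of 5 ILC2s outside the subclusters with an entry, except *Lgals3*. The subclusters with an entry for *S100a11* held 42.8% of the ILC2s, the largest part for any member, because subcluster 2 was among them.

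**Figure D3:**
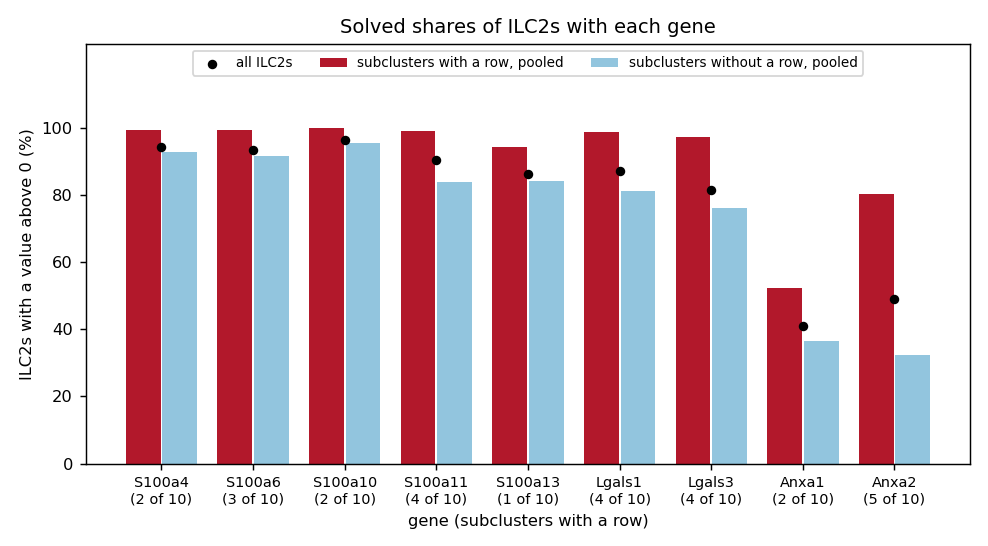
Solved share of ILC2s with each member (y axis, %) in the subclusters with an entry pooled (red bars), in those without pooled (blue bars) and in all ILC2s (dots); *Vim* is not shown. The bars of *Anxa2*, 80.2% and 32.3%, lie farthest apart and those of *S100a10*, 99.9% and 95.6%, closest.

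The genes whose sets of subclusters were most like those of a member were found with the Jaccard index, the shared subclusters divided by all subclusters of either gene, for the members with at least 3 entries. For *S100a6*, 3 genes had the identical set, and the nearest in share were *Arpc1b* and *Vasp*, which act on actin filaments. In subcluster 1 the share of *Arpc1b* was 99.4%, with 92.2% outside, and that of *Vasp* 90.4%, with 71.9% outside. For *S100a11*, 10 genes had the identical set, led by *Eif3h*, a subunit of a translation initiation factor, and *Coro1a*, an actin-binding protein. For *Lgals3* the single gene with the identical set was *Pdcd1*, which encodes the checkpoint receptor PD-1. The shares of *Pdcd1* in subclusters 1, 6, 7 and 8 were 44.0%, 56.6%, 74.0% and 46.1% in this order, so its highest share was in subcluster 7, where *Lgals3* had its lowest. *Ddit4* followed for *Lgals3* with an index of 0.8. No gene had the identical set of *Lgals1* or *Anxa2*. Their nearest were *Anxa2* (0.8) and *Cfl1* (0.75) for *Lgals1*, and *Actg1* (0.833) and *Lgals3* (0.8) for *Anxa2*. The index describes sets drawn from 10 subclusters and says nothing about shared control.

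Other genes of these families had few entries among ILC2s. Of 12 other S100 genes only *S100a1* had one, in subcluster 7 (40.5% against 16.5%). Of 10 other annexins 3 had 1 entry each: *Anxa6* in subcluster 1 (89.1% against 69.5%), *Anxa7* in subcluster 7 (63.0% against 34.5%) and *Anxa5* in subcluster 9 (69.1% against 52.5%). *Anxa5* thus shared subcluster 9 with *Anxa1*. None of 8 other galectin genes had an entry, while *Lgals3bp*, which encodes a protein bound by galectin-3, had entries in subclusters 1, 4 and 8, at 62.3%, 82.6% and 71.9%. Of 15 cytoskeletal genes 12 had an entry, 10 of them in subcluster 1. Their 27 entries had a median difference of 3.7 points, and 7 reached 10 points. *Flna*, which encodes filamin A, was at 86.4% against 56.2% in subcluster 1. Its entry in subcluster 5 was at 24.3% against 63.8%, and that of *Plec*, which encodes plectin, at 28.1% against 67.1%. A smaller share inside was general to the entries of subcluster 5 (97.8%) and not particular to these 2 genes. *Ahnak*, which encodes a large protein that binds *S100a10* and *Anxa2* products, was at 98.6% against 90.3% in subcluster 1. *Lmna*, which encodes a nuclear lamina protein, had its entry in subcluster 0, with *Anxa1*, at 48.6% against 34.1%. Of the ILC2 genes fixed for comparison, *Il13* had entries in subclusters 1, 2, 4, 7 and 8, *Il5* in 7 and 9, and *Gata3* and *Il1rl1*, the receptor of IL-33, in 0 and 3.

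Among all sorted cells, the shares rest on a wider set of cells. *Anxa1* was found in 72.1% of all sorted cells and in 41.0% of ILC2s, which are different sets of cells. *Cd3e*, which encodes a CD3 chain, was found in 83.3% of the cells outside the type named ILC3, although the sort removed CD3e+ cells. Whether the shares of both tables lie on the same scale was not tested. Shares of the cell type table are therefore compared only with each other. Sizes solved in the same way put the type named ILC2 at 43.2% of the cells.

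Entries of members gathered in a few small cell types. The type named ILC1_ILC3 had all 8 members of this table (13.4% of all 1679 genes had an entry there), and ILC3 (9.11%) and gdT_TypeIII_CD163l1 (11.4%) had 7 each. ILC3 lacked *Anxa2* and gdT_TypeIII_CD163l1 lacked *Anxa1*. The type gdT_TypeIII_ITGAE (11.7%) had 6 and lacked both annexins. These 4 types held 0.592%, 1.70%, 1.38% and 1.28% of the cells. Basophil (16.4%), ILC1 (8.64%) and Prolifelation cell, as the table spells it (30.6%), had 4 members each, and NK (11.7%) had 3. ILC2 (8.1%), CD8_Effector (5.6%), Macrophage (17.3%), Treg (8.93%) and gdT_TypeI (8.64%) had 1 each. The remaining 8 types had none. Over all genes, entries were present for 7.80% in CD4, 8.87% in gdT_Naive, 11.8% in CD8_Naive, 11.9% in ILC2_2, 12.2% in Plasma cell, 23.6% in Endothelium cell and 24.0% in MMP_LMPP, but for only 1.67% in gdT_TypeII.

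The names of these types were set against fixed marker genes. Basophil had 6 of 6 basophil markers, NK 7 of 7 and ILC1 6 of 7 ILC1 and NK markers, ILC2 7 of 8 ILC2 markers and Prolifelation cell 5 of 5 cell cycle markers. ILC1_ILC3 had 4 of 7 ILC1 and NK markers, and both it and ILC3 had entries for the ILC3 markers *Ccr6* and *Il1r1*. In ILC3 these were at 53.1% against 51.0% and at 48.4% against 42.5%. ILC3 also had 4 of 8 T cell markers, including *Cd3e* (91.4% against 83.3%), so its name is used here only as the table gives it. Macrophage had 2 of 6 macrophage markers, *Lyz2* and *Cd68*.

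*S100a4* was the single member with an entry in ILC2. It was found in 98.5% of ILC2 against 69.9% of all other cells, and in 67.0% of the 16 types without an entry, pooled. ILC2 held 51.8% of all sorted cells that had it. The other entries of *S100a4* were in ILC1_ILC3 (100%), ILC3 and gdT_TypeIII_CD163l1 (99.8% each) and gdT_TypeIII_ITGAE (98.0%), against 81.9% to 82.1% of the other cells. *S100a6* had these last 4 types as well, at 98.4% to 100% against 85.8% to 85.9%, but had ILC1 (93.3% against 85.6%) in place of ILC2.

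*S100a10* was found in 100% of ILC1_ILC3, ILC3, Prolifelation cell and both gdT_TypeIII types, against 97.2% to 97.3% of the other cells, and in 97.7% of Treg. Its differences ran from 0.4 to 2.8 points. *S100a11* had the same types without Treg and with Basophil, at 98.8% to 100% against 92.8% to 93.2%. *Lgals1* had ILC1_ILC3, ILC3 and both gdT_TypeIII types too, at 98.7% to 100%, together with Prolifelation cell (99.9% against 87.2%), NK (96.8% against 87.7%) and CD8_Effector (89.2% against 88.0%).

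*Lgals3* was found in 99.7% of Basophil against 71.9% of other cells, in 95.8% of Macrophage against 71.1% and in 87.5% of ILC1 against 71.5%. The 4 types ILC1_ILC3, ILC3 and the gdT_TypeIII pair had it in 96.9% to 99.5%. *Anxa1* was highest in Basophil (98.8% against 71.8%) and ILC1_ILC3 (95.6% against 72.0%), followed by ILC1 (89.9%), NK (89.2%) and ILC3 (78.7%). *Anxa2* was found in 97.4% of Prolifelation cell against 60.8% of other cells and in 96.9% of NK against 61.8%. Basophil (95.2%), ILC1_ILC3 (93.4%), ILC1 (92.1%), gdT_TypeIII_CD163l1 (89.1%) and gdT_TypeI (71.2%) followed. The types without an entry had *Anxa2* in 53.7% and *Lgals3* in 68.2% of their cells. The annexins shared Basophil, ILC1, ILC1_ILC3 and NK here, whereas they shared no subcluster among ILC2s. The shares inside and outside a type come without an error or a number of cells in the table, so the order of neighbouring types is a description.

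**Figure D4:**
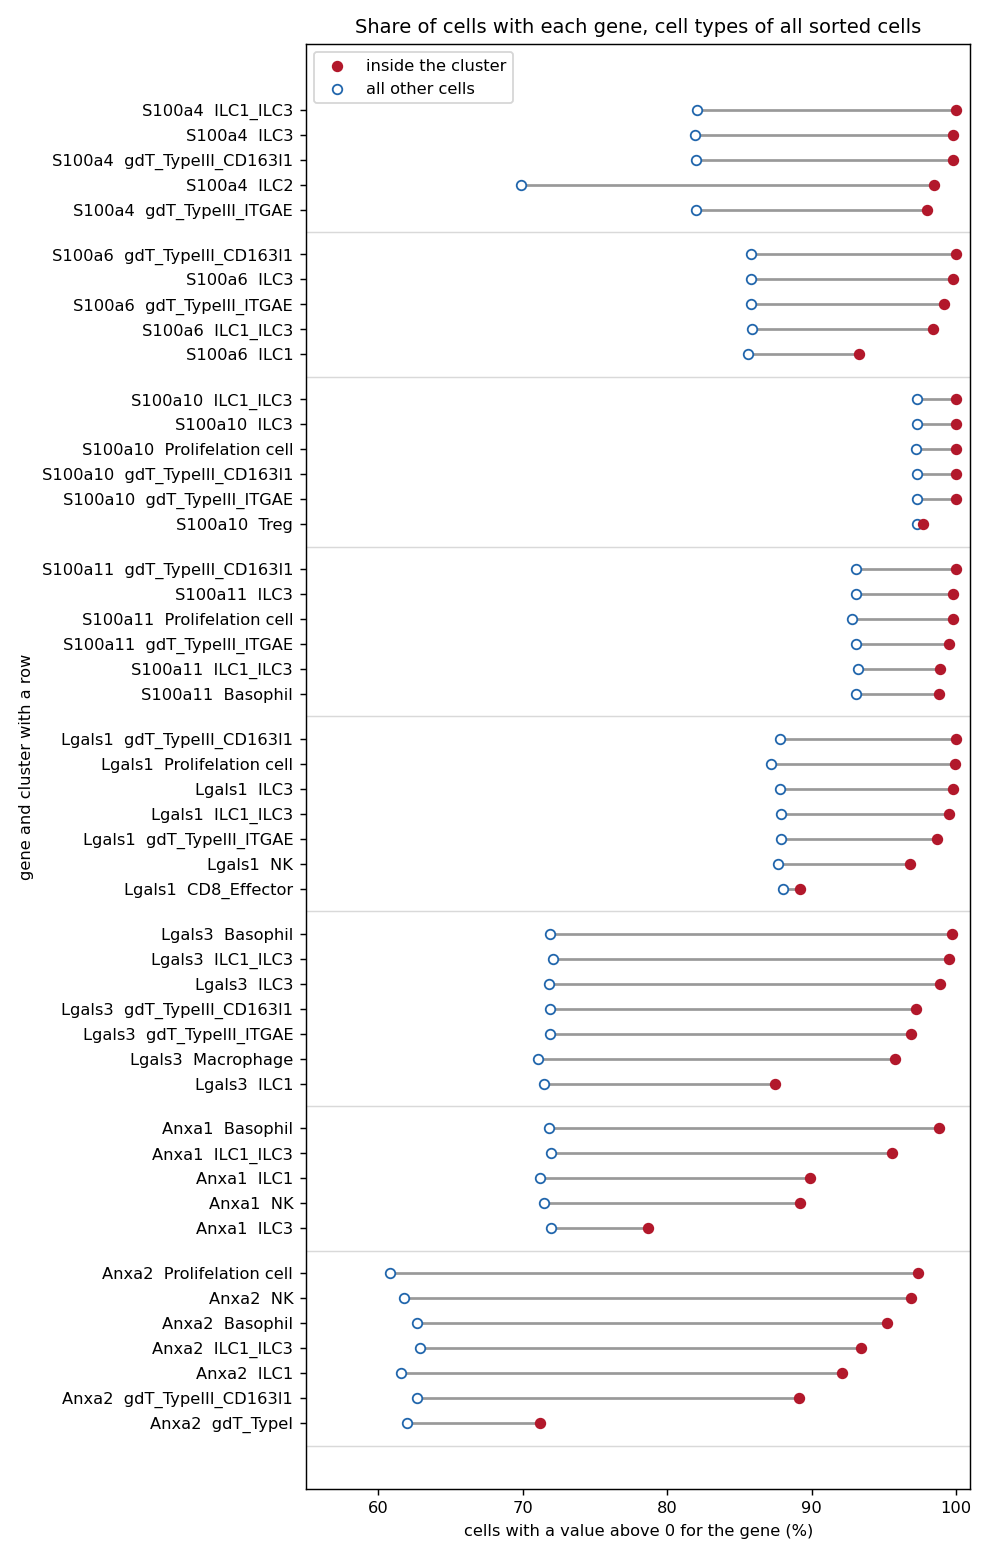
Percent of cells in which each member was above 0 (x axis, %, starting at 55%) inside a cell type (filled) and in all other sorted cells (open), 1 line for each of the 48 entries. *Anxa2* in Prolifelation cell, from 60.8% to 97.4%, is the longest line and *S100a10* in Treg, from 97.3% to 97.7%, the shortest.

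Of the other family genes, *S100a16* was found in 90.4% of Endothelium cell against 19.4% of other cells and *Anxa3* in 89.6% against 11.4%. *S100a1* had entries in Endothelium cell (75.7% against 33.2%) and ILC1_ILC3 (66.1% against 33.3%). No member had an entry in Endothelium cell, where 23.6% of all genes of the table had one. *Anxa5* had 7 entries, the highest shares in Macrophage (95.1%) and Basophil (94.3%), and *Anxa4* had Endothelium cell and Macrophage. No other galectin gene had an entry.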

How the data were processed

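Libraries were made with the 10x Chromium 3' kit (v3.1 per the labels) and the authors used Cell Ranger with mm10. Cells with fewer than 500 genes were left out, counts of each cell were scaled to 10000 and natural log transformed, and clusters and their marker genes were found in Seurat. The deposited shares are the fraction of a cluster's cells, and of the remaining cells, in which a gene was above 0, given to 3 decimals. Flow cytometry was used against doublets and dead cells, and no doublet caller could be run on tables without cells. The other 3 columns of numbers in each table hold the authors' own fold changes and p-values for these comparisons and were not used. Unused columns of values per sample: 0.

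Members and gene lists were chosen with earlier results of these data known. Named genes were all members, the genes of the fixed lists with an entry, and the 2 genes per member with the most similar set of subclusters. Sizes were solved by least squares (Python 3.11.15, numpy 2.4.6, pandas 2.3.3) over genes with entries in at least 2 clusters, 1045 for cell types and 768 for ILC2 subclusters. They summed to 100.1% ± 0.106 (SE) and 100.2% ± 0.111, with root mean square residuals of 0.0233 and 0.0204 points, below the 0.0289 that rounding gives. The fit was tested on simulated data. Alternatives changed the entries counted and the size fit. Positions are from GENCODE M21 and promoter windows from RefSeq, both GRCm38, the build of the deposited tables. Protein sequences were not used here, and 1 marker gene is not reported here.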

Additional observations from a re-analysis of the deposited data

How the results depend on the processing

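Counting only entries with a share at least 10 points above the other cells left 17 member entries in the ILC2 subcluster table and 31 in the cell type table, which follows from the stricter threshold; *S100a4*, *S100a6* and *S100a10* then had 0 subclusters, and *S100a10* and *S100a11* had 0 cell types. All 27 and 48 entries were kept when only a larger share inside the cluster was asked for. Leaving out the cluster with the most entries over all genes gave 44 for cell types (without Prolifelation cell), and for ILC2s it could not change the 27, since subcluster 5 held no member entry. Leaving out the 3 smallest subclusters, chosen after seeing the data, gave 18. Of 102 solved shares under other size fits, 1 moved by more than its error, that of *Anxa2* in the subclusters without an entry, to 32.3%, and this was the largest move at 0.0418 points. By log odds in place of the difference in share, 5 of 9 members kept their top subcluster and 5 of 8 their top cell type; the top subcluster of *S100a4*, *S100a6*, *S100a11* and *Lgals1* moved from 1 to 6. No paired analysis was possible because the tables pool the 4 libraries, of which each group had 1. Depth and cell numbers are not in the tables.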
